A study of Mus musculus with 16 samples.

Results

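The Hox genes of the mouse are the homeobox transcription factor genes of the 4 Hox clusters. They were taken here as every gene of the deposited count table whose symbol is Hoxa, Hoxb, Hoxc or Hoxd followed by a number, which gave 39 of 55359 genes: 11 in the Hoxa cluster, 10 in Hoxb, 9 in Hoxc and 9 in Hoxd. Total RNA of the duodenum, the first part of the small intestine, and the ileum, its last part, was sequenced from 8 adult male C57BL/6N mice on a standard diet, and each animal gave both tissues. All 8 animals carried floxed Neurog3 alleles (Neurog3f/f), Neurog3 being the transcription factor that starts the enteroendocrine, or hormone-producing, fate. In 4 of them, the mutants (NFVCT27, NFVCT38, NFVCT153 and NFVCT190), Villin-CreERT2 had removed the gene; this transgene makes a recombinase in the gut epithelium, from that tissue's Villin promoter, and tamoxifen switches it on. The other 4, the controls (NF17, NF29, NF32 and NF152), lacked the transgene, so an effect of the recombinase cannot be told apart from that of Neurog3 loss. Tissue was taken 18 weeks after tamoxifen. Whether controls were dosed too is not spelled out in the labels, and neither is the layer of the gut wall that was taken.

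Hox proteins bind DNA with cofactors of the Pbx and Meis families and give cells their position along the body axis. Within a cluster the genes lie in the order of their numbers, low numbers being active towards the head and high numbers towards the tail, and this nested order also divides the developing gut tube. In the gut wall many Hox genes are known to be active in the mesenchyme and smooth muscle around the epithelium. The members are grouped by number as anterior (1 to 3), central (4 to 8) and posterior (9 to 13).

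Stretches from just before the transcription start of 4 genes are shown because they belong to genes on opposite sides of the difference between tissues: Hoxb8 and Hoxd8 were higher in the ileum, and Hoxa5 and Hoxa2 were lower there in mutants. Each is the 250 bases before the start given by RefSeq (build GRCm38.p6), read 5′ to 3′ on the gene's strand. Capitals mark matches, on either strand, to TTTATG or TTTATA, sequences bound by the Cdx proteins, and to TGATNNAT, a sequence bound by Hox and Pbx proteins together. The other strand of TTTATA reads TATAAA, the letters of a TATA box. The Hoxb8 stretch is chr11:96281655-96281904 (plus strand), that of Hoxd8 chr2:74704365-74704614 (plus strand), that of Hoxa5 chr6:52204588-52204837 (minus strand) and that of Hoxa2 chr6:52164832-52165081 (minus strand). No exon of the GENCODE vM21 annotation lies in any of these 4 stretches.
Hoxb8: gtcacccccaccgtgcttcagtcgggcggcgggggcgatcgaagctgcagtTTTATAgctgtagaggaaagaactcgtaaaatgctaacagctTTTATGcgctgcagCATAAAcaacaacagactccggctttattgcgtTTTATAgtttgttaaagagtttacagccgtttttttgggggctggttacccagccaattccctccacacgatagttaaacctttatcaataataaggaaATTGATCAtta
Hoxd8: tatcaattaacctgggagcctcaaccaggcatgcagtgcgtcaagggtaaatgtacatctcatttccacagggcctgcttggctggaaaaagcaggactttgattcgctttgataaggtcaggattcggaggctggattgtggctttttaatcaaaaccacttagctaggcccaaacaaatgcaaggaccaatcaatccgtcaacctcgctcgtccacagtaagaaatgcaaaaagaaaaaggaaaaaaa
Hoxa5: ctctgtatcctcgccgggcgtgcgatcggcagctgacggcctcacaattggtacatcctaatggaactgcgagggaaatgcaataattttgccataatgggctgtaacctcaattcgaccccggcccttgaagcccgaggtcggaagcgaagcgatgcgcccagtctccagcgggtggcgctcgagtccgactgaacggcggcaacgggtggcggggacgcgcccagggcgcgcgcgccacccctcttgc
Hoxa2: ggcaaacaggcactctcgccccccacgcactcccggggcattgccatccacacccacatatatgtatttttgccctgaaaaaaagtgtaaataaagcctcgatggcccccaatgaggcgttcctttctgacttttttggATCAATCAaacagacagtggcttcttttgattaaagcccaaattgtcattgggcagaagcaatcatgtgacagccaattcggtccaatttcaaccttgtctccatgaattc

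The Hoxb8 stretch held 2 matches to TTTATG, 2 to TTTATA and 1 to TGATNNAT. That of Hoxa2 held 1 match to TGATNNAT, and those of Hoxd8 and Hoxa5 held none of the 3 motifs. RefSeq stretches were given for 22 of the 39 Hox genes (24 stretches, since Hoxa10 and Hoxd11 had 2 starts each). TTTATG was found in 5 of the 24 and in 10.8% of all 32851 stretches of the same length, TTTATA in 4 of 24 and in 12.4%, and TGATNNAT in 4 of 24 and in 7.68%.  These matches describe the letters only.

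The table held 8 Hox genes with 0 counts in all 16 libraries: Hoxa11, Hoxc11, Hoxc12, Hoxc13, Hoxd1, Hoxd11, Hoxd12 and Hoxd13. Of these, 7 are posterior genes and 1, Hoxd1, is anterior. All 15 central genes had counts. A count of 0 over all 16 libraries allows up to 0.0121 CPM, a library's counts scaled to a common total, and covers counting error only. A further 3 genes had 1 or 2 counts in all: Hoxa13 and Hoxb1 had 1 count each, both in the duodenum, and Hoxb13 had 1 in each tissue. Another 7 had 0 counts in all 8 duodenal libraries and at least 1 in the ileum: Hoxa9, Hoxa10, Hoxc8, Hoxc9, Hoxc10, Hoxd3 and Hoxd10. A filter on low counts left 19 genes tested in at least 1 comparison and 20 in none, 12 of which had counts.

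Libraries held 8213889 to 35076714 counts. Neurog3 was counted 12 to 37 times in each control duodenum and 8 to 27 times in each control ileum, and 0 times in all 8 mutant libraries. Of 6 genes of ileal identity, 6 rose in the ileum of both genotypes. Exocrine pancreas genes took 2.07% to 21.4% of the counts of duodenal libraries and at most 0.949% of ileal ones. With these genes left out, 13 Hox genes were higher in control ileum, and 10 higher and 2 lower in mutant ileum. These are the same counts as with them. Leaving them out does not remove Hox reads of any pancreatic tissue in a library, and the part of such reads was not tested.

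Hox transcripts took a smaller part of the duodenal libraries. They summed to 12.4 ± 2.39 CPM in control duodenum and 15.4 ± 3.58 in mutant duodenum, against 75.6 ± 2.60 in control ileum and 80.7 ± 12.3 in mutant ileum (mean ± SD, n = 4; CPM scaled with TMM factors over the 16 libraries). This rests on 98 to 627 Hox counts in a duodenal library and 610 to 2127 in an ileal one. In bulk RNA, fewer cells of a type and less RNA per cell cannot be told apart. The makeup of these counts differed as well. Anterior genes gave 42.6 ± 4.10% of the Hox counts in control duodenum and 35.9 ± 1.77% in mutant duodenum, but 8.77 ± 0.838% and 8.82 ± 2.52% in the ileum of controls and mutants. Posterior genes gave 1.86 ± 1.37% and 0.677 ± 0.512% in the duodenum and 35.2 ± 0.852% and 35.4 ± 2.54% in the ileum. Central genes gave 55.5 ± 3.94% and 63.4 ± 1.47% in the duodenum against 56 ± 1.27% and 55.8 ± 1.03% in the ileum. By cluster, Hoxa genes gave 43.9 ± 3.43% in control duodenum and 7.25 ± 1.91% in control ileum, Hoxb genes 44.5 ± 2.58% and 68.8 ± 2.16%, Hoxc genes 5.78 ± 3.41% and 17.8 ± 1.19%, and Hoxd genes 5.80 ± 2.77% and 6.18 ± 0.997%. The anterior, posterior and Hoxa shares of control duodenum and control ileum thus lay many SDs apart, while those of central and Hoxd genes lay within 1 SD. These shares were not tested.

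**Figure D1:**
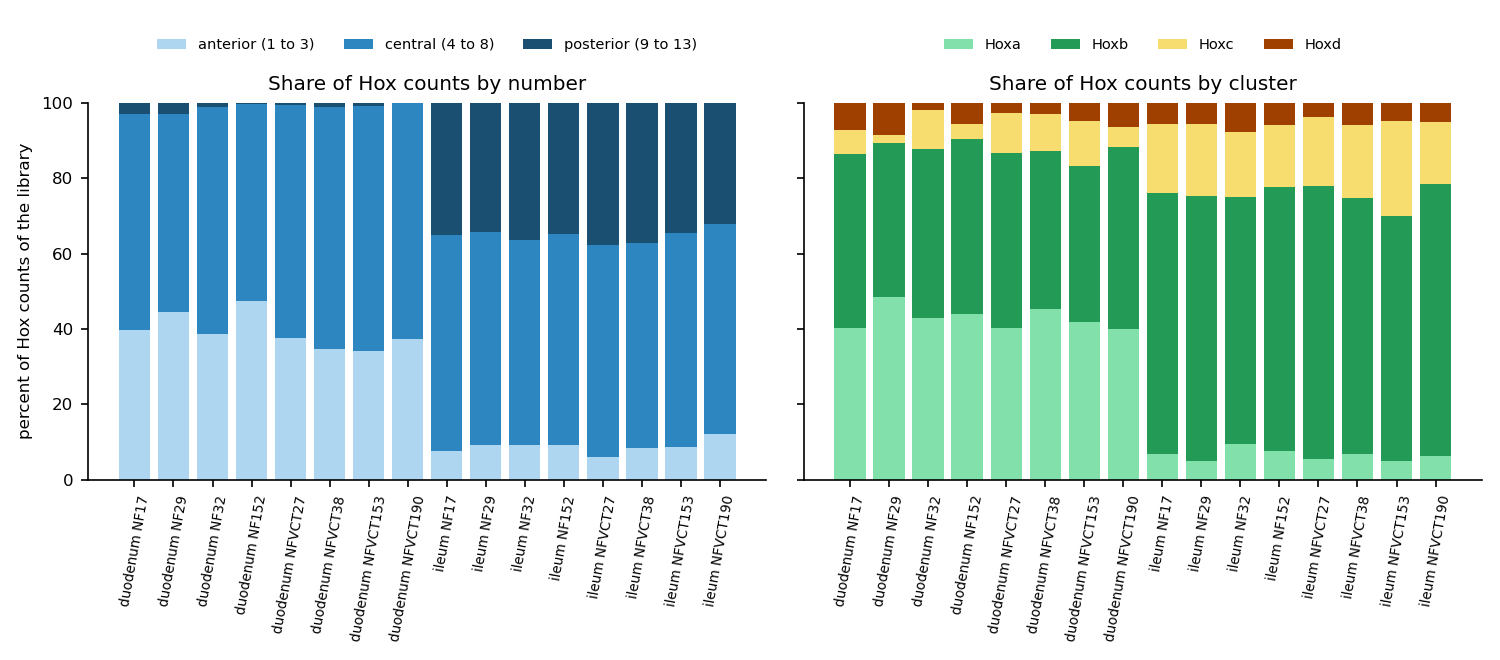
Stacked bars give the percent of each library's Hox counts by number (left) and by cluster (right), 1 bar per library, ordered by tissue and genotype. The dark posterior share is at most 3.08% in the 8 duodenal libraries and at least 32.2% in the 8 ileal ones.

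Per length of transcript, the leading Hox genes were not the same in the 2 tissues. Levels compared between genes are CPM per kilobase of annotated exon (GENCODE vM21), mean ± SD over 4 libraries. Control duodenum was led by Hoxa5 at 1.1 ± 0.281, followed by Hoxa2 at 0.579 ± 0.187, Hoxb2 at 0.542 ± 0.206, Hoxa4 at 0.498 ± 0.243 and Hoxb4 at 0.479 ± 0.202. The last 4 lie within each other's SD. In mutant duodenum the same 5 genes led, with Hoxa5 at 1.51 ± 0.560. Control ileum was led by Hoxb9 at 9.41 ± 0.427, then Hoxb6 at 4.37 ± 0.248, Hoxb7 at 4.36 ± 0.818, Hoxc8 at 2.22 ± 0.159, Hoxd8 at 1.32 ± 0.0419 and Hoxc6 at 1.24 ± 0.228. Hoxb6 and Hoxb7 lay within each other's SD. In mutant ileum Hoxb9 stood at 10.2 ± 0.737, and the same 6 genes led. Hoxb9 alone gave 32 ± 0.498% of the Hox counts of control ileum and 32.9 ± 2.89% of those of mutant ileum.

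**Figure D2:**
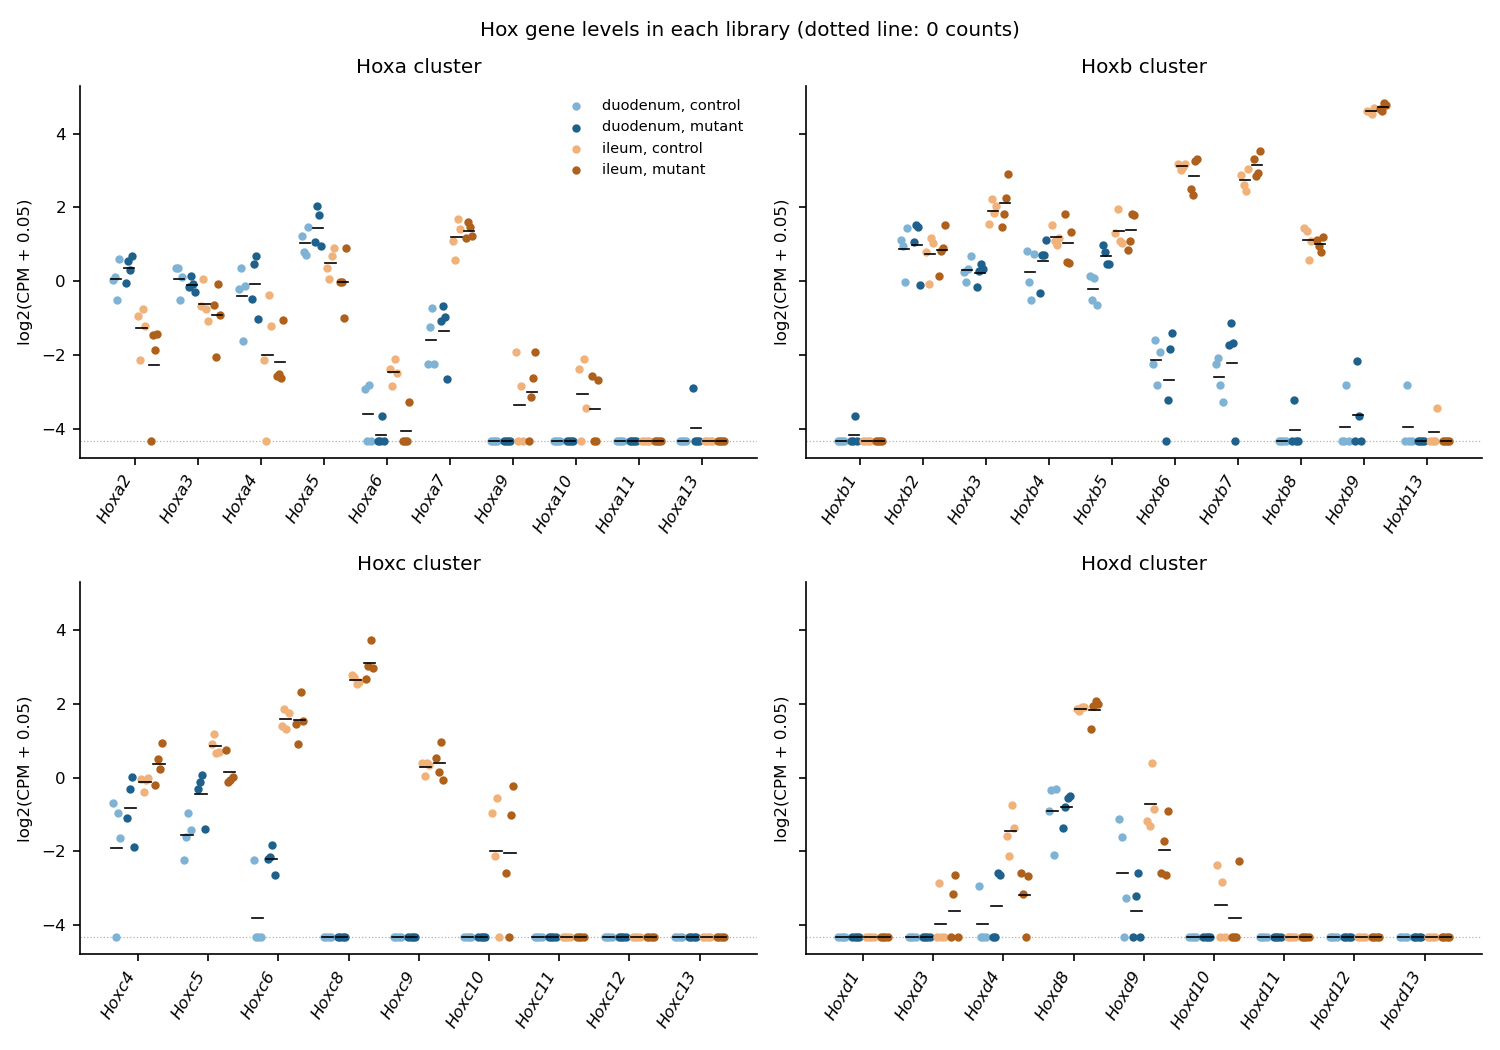
Each point is 1 library, as log2(CPM + 0.05), for Hox genes by cluster and number, with a bar at the mean of each group of 4; the dotted line marks 0 counts. Hoxa2 points lie higher in the duodenum, while for Hoxa7, Hoxb3, Hoxb6 to Hoxb9, Hoxc6, Hoxc8, Hoxc9 and Hoxd8 every ileal point lies above every duodenal one of its genotype.

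The ileum was set against the duodenum within each genotype with edgeR's quasi-likelihood test, and genes were called at a Benjamini-Hochberg adjusted p under 0.05 over all genes tested. Log2 fold changes are ileum minus duodenum. In controls, 17 Hox genes were tested and 13 were called higher in the ileum, against 17.1% of all 14976 genes tested, and 0 lower, against 18.7% (35.9% of all genes were called in either direction). In mutants, 18 were tested, 10 were higher (15.2% of all 14950 genes) and 2 were lower (17.1%, and 32.3% in either direction). Of the 17 genes tested in controls, 13 passed the filter through their ileal libraries only, as did 12 of the 18 in mutants, while 3 of the 18 passed through the duodenum only. A gene that passes through one tissue alone tends to be higher there, so these counts describe the members and support nothing further. The 10 genes called in both genotypes were Hoxa7, Hoxb3, Hoxb6, Hoxb7, Hoxb8, Hoxb9, Hoxc6, Hoxc8, Hoxc9 and Hoxd8. Within animals, these 10 and Hoxc4 were higher in the ileum in 8 of 8 animals, and Hoxa2 and Hoxa5 were lower in 8 of 8. That is 11 and 2 of 39 members, against 17.3% and 17.4% of the 15882 genes tested over all libraries. The 39 members include genes under the filter, and the 15882 do not. Values below are CPM in the order NF17, NF29, NF32 and NF152 for controls and NFVCT27, NFVCT38, NFVCT153 and NFVCT190 for mutants.

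In the Hoxa cluster the difference changed sign along the cluster. Hoxa2, a gene of hindbrain and branchial arch patterning, stood at 0.979, 1.03, 0.650 and 1.46 CPM in control duodenum and 0.466, 0.179, 0.545 and 0.383 in control ileum. In mutants it stood at 0.924, 1.40, 1.19 and 1.54 in the duodenum and 0, 0.314, 0.225 and 0.321 in the ileum. Every duodenal library lay above every ileal one of its genotype. Hoxa2 fell by 2.36 on the log2 scale in mutants (SE 0.48, adjusted p = 0.00321); in controls it was below the filter, and without that filter its log2 fold change was -1.37 (adjusted p = 0.0293). Hoxa5, which is needed for lung and foregut mesenchyme, stood at 2.28, 1.68, 1.58 and 2.70 CPM in control duodenum and 1.22, 0.983, 1.54 and 1.83 in control ileum. Its mutant values were 2.02, 4.02, 3.39 and 1.88 in the duodenum and 0.936, 0.943, 0.450 and 1.82 in the ileum. The control groups overlapped and the mutant groups did not. Its log2 fold change was -0.56 (SE 0.30, adjusted p = 0.156) in controls and -1.41 (SE 0.39, adjusted p = 0.0161) in mutants; without either library of NFVCT38 the latter was no longer called (adjusted p = 0.0504 without the ileal and 0.0515 without the duodenal one). Hoxa3 had log2 fold changes of -0.76 (SE 0.38, adjusted p = 0.138) in controls and -0.86 (SE 0.43, adjusted p = 0.15) in mutants, and neither passed. Hoxa4 was below the filter in both tissue comparisons, with 42 duodenal and 22 ileal counts in controls and 89 and 12 in mutants; without the filter its log2 fold change in mutants was -2.28 (adjusted p = 0.00154).

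Hoxa7, the next central gene with counts in most libraries, went the other way. It stood at 0.163, 0.374, 0.557 and 0.162 CPM in control duodenum and 2.08, 1.43, 3.18 and 2.59 in control ileum. Mutants had 0.420, 0.583, 0.464 and 0.110 in the duodenum and 2.22, 2.96, 2.70 and 2.30 in the ileum. The tissues did not overlap in either genotype, and its log2 fold change was 2.95 (SE 0.43, adjusted p = 0.000176) in controls and 2.54 (SE 0.35, adjusted p = 0.000285) in mutants. Hoxa6, between Hoxa5 and Hoxa7, had 14 counts in all, 10 of them in control ileum. Hoxa9 and Hoxa10 had counts in the ileum only, 13 and 10 in all.

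The Hoxb cluster held the most abundant ileal Hox genes. Among its tested genes the difference between tissues was larger for Hoxb6 to Hoxb9 than for Hoxb2 to Hoxb5. Hoxb6 to Hoxb9 passed the filter through their ileal libraries only, so this is no evidence of a trend with number. Hoxb2 was not called, with log2 fold changes of -0.17 (SE 0.35, adjusted p = 0.727) in controls (95% interval -0.92 to 0.58) and -0.21 (SE 0.37, adjusted p = 0.688) in mutants (95% interval -1.02 to 0.59). Hoxb3 stood at 1.14, 0.935, 1.21 and 1.56 CPM in control duodenum and 2.87, 4.65, 3.54 and 4.04 in control ileum, and at 0.840, 1.17, 1.33 and 1.21 and 2.69, 3.46, 4.72 and 7.45 in mutants. All ileal libraries lay above all duodenal ones of their genotype, with log2 fold changes of 1.60 (SE 0.26, adjusted p = 0.000404) and 1.98 (SE 0.33, adjusted p = 0.00099). On 52.9% of its annotated exon bases Hoxb3 overlaps Hoxb3os of the other strand, and the strand setting of the counting is not stated, so reads of the partners cannot be told apart. Hoxb4 missed the threshold, with log2 fold changes of 0.86 (SE 0.32, adjusted p = 0.0518) in controls and 0.50 (SE 0.38, adjusted p = 0.344) in mutants. Hoxb5 stood at 1.06, 0.654, 1.02 and 0.594 CPM in control duodenum and 2.44, 3.84, 2.09 and 2.0 in control ileum. In mutants it stood at 1.93, 1.69, 1.33 and 1.32 in the duodenum and 1.76, 2.08, 3.48 and 3.43 in the ileum. The control tissues did not overlap and those of mutants did. Its log2 fold change was 1.64 (SE 0.33, adjusted p = 0.00188) in controls and 0.77 (SE 0.29, adjusted p = 0.0655) in mutants.

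Hoxb6, next along the cluster, was scarce in the duodenum. It stood at 0.163, 0.280, 0.0928 and 0.216 CPM in control duodenum and 8.96, 7.95, 8.44 and 8.97 in control ileum. Its mutant values were 0, 0.0583, 0.232 and 0.331 in the duodenum and 5.62, 5.03, 9.44 and 9.80 in the ileum. Every ileal library lay far above every duodenal one, and the log2 fold change was 5.44 (SE 0.27, adjusted p = 1.48e-08) in controls and 5.45 (SE 0.48, adjusted p = 1.62e-05) in mutants. Hoxb7 stood at 0.163, 0.187, 0.0928 and 0.0540 CPM in control duodenum and 7.28, 6.08, 5.36 and 8.20 in control ileum. Mutants had 0.252, 0.408, 0.261 and 0 in the duodenum and 9.83, 7.17, 7.53 and 11.5 in the ileum. No duodenal library came near an ileal one, and the log2 fold change was 5.78 (SE 0.35, adjusted p = 7.33e-08) and 5.07 (SE 0.37, adjusted p = 3.95e-06).

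Hoxb8 had 0 counts in control duodenum and 1 in mutant duodenum, in NFVCT38. It stood at 2.65, 2.5, 1.45 and 2.08 CPM in control ileum and 2.11, 1.89, 1.69 and 2.25 in mutant ileum. All 8 ileal libraries lay above all duodenal ones. The gene was at least 39.5-fold higher in the ileum of controls, against a floor of 3 counts over the 4 duodenal libraries (adjusted p = 2.01e-05). In mutants the ratio of summed counts, scaled for library size, was 147 (exact binomial 95% interval 25.7 to 5850), with an adjusted p of 1.98e-05. Hoxb9, the first posterior gene of the cluster, stood at 0, 0, 0.0928 and 0 CPM in control duodenum and 24.2, 23.9, 23.2 and 25.8 in control ileum. In mutants it stood at 0, 0.175, 0.0290 and 0 in the duodenum and 25.2, 24.3, 28.4 and 27.2 in the ileum. Of the 8 duodenal libraries 5 held 0 counts, and the ileal libraries of each genotype lay close together. The ratio in controls was 1280 (exact binomial 95% interval 229 to 50600) on 1 duodenal count (adjusted p = 4.04e-10), and the log2 fold change in mutants was 8.68 (SE 0.35, adjusted p = 4.29e-08). Beyond Hoxb9 the next coding gene of the cluster, Hoxb13, had 2 counts in all 16 libraries.

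In the Hoxc cluster, which has no gene below number 4, Hoxc4 to Hoxc6 had duodenal counts and Hoxc8 to Hoxc10 had none. Hoxc4 stood at 0.571, 0, 0.464 and 0.270 CPM in control duodenum and 0.932, 0.715, 0.908 and 0.935 in control ileum. Its mutant values were 0.420, 0.758, 0.956 and 0.221 in the duodenum and 0.819, 1.38, 1.12 and 1.87 in the ileum. The control groups did not overlap and the mutant groups did. The log2 fold change was 1.42 (SE 0.53, adjusted p = 0.0495) in controls and 1.01 (SE 0.41, adjusted p = 0.0828) in mutants. The call in controls was lost with the animal as a paired block (adjusted p = 0.0578), where Hoxb4 passed instead (0.87, adjusted p = 0.0393), and in 5 fits that left out 1 library (ileum of NF29 or NF32; duodenum of NF29, NF32 or NF152; adjusted p from 0.0624 to 0.102); without the ileum of NF17 or NF152 it was below the filter. Hoxc5 stood at 0.163, 0.280, 0.464 and 0.324 CPM in control duodenum and 1.83, 2.23, 1.54 and 1.57 in control ileum. Mutants had 0.756, 0.875, 1.01 and 0.331 in the duodenum and 1.64, 0.880, 0.899 and 0.964 in the ileum. The tissues stood apart in controls and overlapped in mutants, with log2 fold changes of 2.52 (SE 0.37, adjusted p = 0.000187) and 0.41 (SE 0.38, adjusted p = 0.44). Hoxc6 stood at 0.163, 0, 0 and 0 CPM in control duodenum and 2.58, 3.57, 2.45 and 3.32 in control ileum. In mutants it stood at 0.168, 0.175, 0.232 and 0.110 in the duodenum and 2.69, 1.82, 4.94 and 2.84 in the ileum. All ileal libraries lay above all duodenal ones. The ratio in controls was 77.0 (exact binomial 95% interval 21.1 to 640) on 2 duodenal counts (adjusted p = 6.49e-06), and the log2 fold change in mutants was 3.94 (SE 0.43, adjusted p = 6.19e-05).

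Hoxc8 had 0 counts in all 8 duodenal libraries. It stood at 6.78, 6.52, 5.81 and 5.99 CPM in control ileum and 6.32, 8.05, 13.1 and 7.82 in mutant ileum. The gene was thus found in each of the 8 ileal libraries, at least 110-fold higher in controls (adjusted p = 3.42e-07) and at least 207-fold higher in mutants (adjusted p = 1.04e-05). Hoxc9, also at 0 in the duodenum, stood at 1.26, 0.983, 1.27 and 1.23 CPM in control ileum and 1.40, 1.07, 1.91 and 0.911 in mutant ileum. It was at least 21.1-fold and 29.3-fold higher in the ileum of controls and mutants (adjusted p = 7.97e-05 and 0.000332). Hoxc10 was below the filter, with 22 and 20 ileal counts and 0 duodenal ones, at least 5.21-fold and 9.31-fold higher. Hoxc5 and Hoxc10 share annotated exon bases on the same strand, 5.37% of those of Hoxc5 and 8.7% of those of Hoxc10, so their counts are less certain.

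Of the Hoxd cluster only Hoxd8 was tested. It stood at 0.489, 0.748, 0.186 and 0.755 CPM in control duodenum and 3.55, 3.48, 3.72 and 3.70 in control ileum. Its mutant values were 0.336, 0.525, 0.638 and 0.662 in the duodenum and 2.46, 3.77, 4.16 and 3.96 in the ileum. No library of one tissue reached the other, and the log2 fold change was 2.67 (SE 0.33, adjusted p = 3.79e-05) in controls and 2.68 (SE 0.30, adjusted p = 7.47e-05) in mutants. Hoxd9 had 9 duodenal and 41 ileal counts in controls, and 5 and 15 in mutants, with overlapping libraries. Hoxd4 had 1 duodenal and 24 ileal counts in controls, a ratio of 17 (exact binomial 95% interval 2.78 to 701), and 5 and 4 counts in mutants. Hoxd3 and Hoxd10 had 3 and 8 counts in all, each in the ileum. Hoxd3 and Hoxd4 share 62.4% and 52.3% of their annotated exon bases with each other or with Gm28230 on the same strand, so their counts are uncertain.

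**Figure D3:**
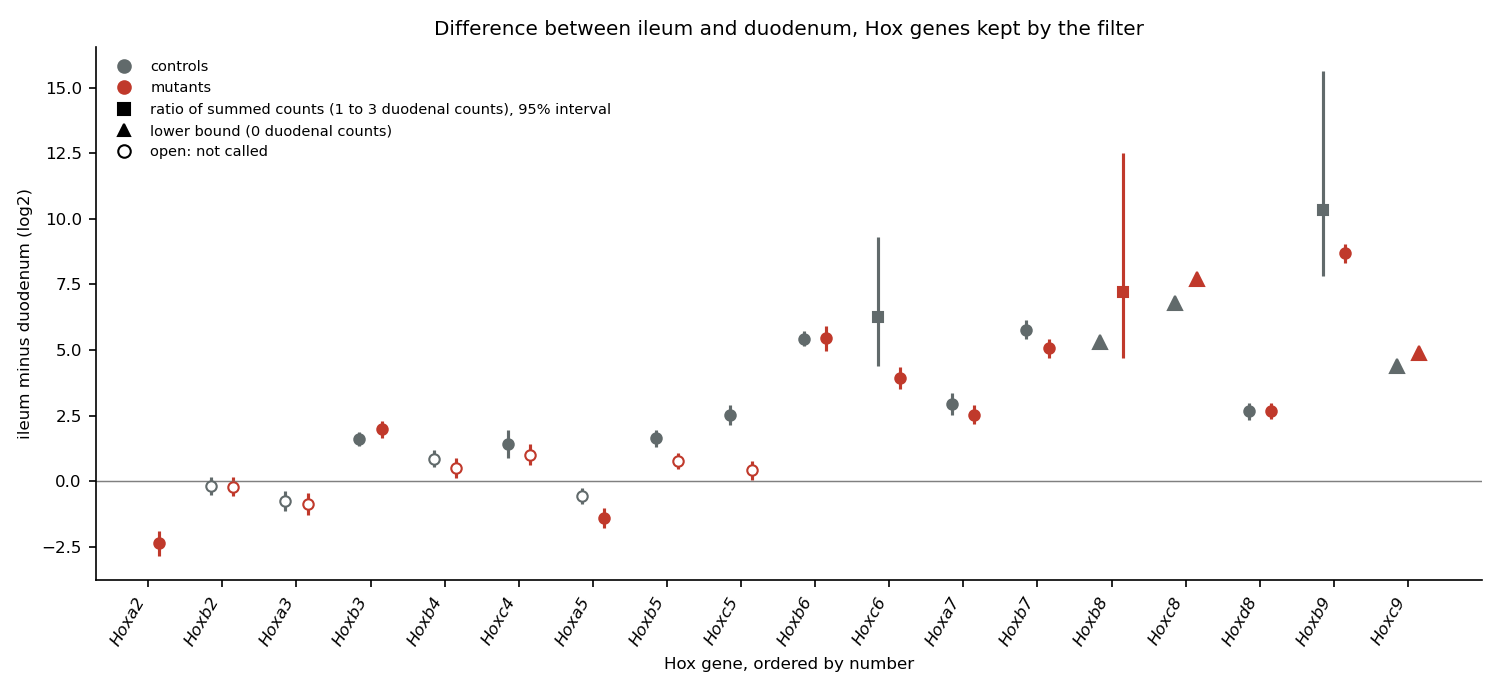
Log2 difference of ileum minus duodenum for the Hox genes tested, ordered by number, in controls (grey) and mutants (red). Circles are fitted values ± SE, squares ratios of summed counts with their 95% interval, triangles lower bounds for genes with 0 duodenal counts, and open symbols genes not called. Genes from number 6 up lie above 2 in both genotypes, and those of numbers 2 to 5 between -2.36 and 2.52. Those from number 6 up all passed the filter through their ileal libraries only, so this split is no evidence of a trend.

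Gene number and log2 fold change were set side by side. Every tested gene of number 6 or more passed the filter through its ileal libraries only, so a high-numbered gene could hardly enter unless it was high in the ileum, and the values below are no evidence of a trend. Over the 17 genes tested in controls, Pearson's r was 0.797 and Spearman's rho 0.808. Over the 18 tested in mutants they were 0.83 and 0.832. Genes with 3 or fewer duodenal counts, 5 and 3 of them, entered at the bound that 3 counts set. These are descriptions across genes, which share libraries and lie in the same clusters.

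Marker genes of the gut wall also differed between tissues. Of 11 smooth muscle genes, 10 rose in the ileum of controls and 9 in that of mutants. The list's mean log2(CPM + 1) ran from 5.95 to 7.03 in control duodenum, 7.31 to 7.76 in control ileum, 6.24 to 7.26 in mutant duodenum and 7.94 to 8.42 in mutant ileum. Differences were 1.01 and 1.24, p = 0.0286 each by exact two-sided permutation of 4 against 4, the smallest p of that test (adjusted p = 0.054 over the lists). It treats the libraries as independent, although each animal gave both tissues, and the lists were not tested as pairs. Of 12 fibroblast genes, 8 rose in either genotype and 1 fell in controls, and the list's mean was higher by 0.56 and 0.67 (the same p). None of the genes of either list was at 0. Mesothelial genes differed by 0.65 and 0.59 (adjusted p = 0.054 and 0.0971). The part of fibroblasts and mesothelium in the Hox results was not tested. With the smooth muscle score as a covariate, 9 Hox genes were called higher in controls and 5 in mutants. Over all genes, calls between tissues in controls fell from 5372 to 1232 with the covariate, and those in mutants fell too. The score did not overlap between tissues in either genotype, so a lost call cannot be assigned to smooth muscle. Log2 fold changes with the covariate were 5.10 and 5.36 for Hoxb6, 6.21 and 4.87 for Hoxb7 in controls and mutants, and for Hoxb9 in mutants 8.13. Calls lost with it in controls were those of Hoxb3 (1.58, adjusted p = 0.0823), Hoxb5 (2.21, adjusted p = 0.0666), Hoxc4 (1.80, adjusted p = 0.363) and Hoxd8 (1.84, adjusted p = 0.0873). In mutants the lost calls were those of Hoxa7 (1.28, adjusted p = 0.358), Hoxb3 (2.02, adjusted p = 0.137), Hoxc6 (2.26, adjusted p = 0.174), Hoxc9 (adjusted p = 0.0984) and Hoxd8 (2.46, adjusted p = 0.0692), besides Hoxa2 and Hoxa5. Of the 10 genes called in both genotypes, the 5 still called in both were Hoxb6, Hoxb7, Hoxb8, Hoxb9 and Hoxc8. Values of Hoxb4 in controls (-0.13), Hoxc4 in mutants (-0.20) and Hoxc5 in mutants (-0.60) changed sign, while Hoxa2 (-2.10, adjusted p = 0.18) and Hoxa5 (-1.99, adjusted p = 0.149) in mutants kept theirs without passing. Lists of enteric neurons and glia, endothelium and leukocytes differed by at most 0.28 between tissues, with an adjusted p of 0.132 or more. The intestinal epithelium list was higher in the ileum by 0.31 in controls (exact permutation p = 0.0571, adjusted p = 0.0971). In mutants it was higher by 0.15 (adjusted p = 0.486). Of its 10 genes, 4 rose and 1 fell in controls, and 0 were called in mutants.

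Loss of Neurog3 was set against control within each tissue to ask whether it moved the Hox genes. None was called. In the duodenum 8 Hox genes were tested and 0 called, against 0.394% of all 14703 genes (0.0952% higher and 0.299% lower in mutants), and in the ileum 16 were tested and 0 called, against 3.28% of 14951 (1.77% higher and 1.51% lower). DESeq2 and limma-voom called 0 as well. At an unadjusted p under 0.05 there was 1 of the 8 in the duodenum, against 1280 of all 14703 genes. In the ileum there were 2 of the 16, against 2356 of 14951. The 1 in the duodenum was Hoxb5, with 1.06, 0.654, 1.02 and 0.594 CPM in controls and 1.93, 1.69, 1.33 and 1.32 in mutants. Every mutant library lay above every control one, as for 2.77% of all genes tested, and the log2 fold change was 0.92 (SE 0.32, adjusted p = 0.353). No other Hox gene had groups that stood apart in the duodenum, where controls lay above mutants for 0 members and 2.98% of all genes tested. In the ileum mutants lay above controls for 0 members (5.79% of all genes tested) and below for 2 (4.35%), Hoxa6 and Hoxd4. Both are under the filter, and these shares leave out genes under the filter. The 2 genes with an unadjusted p under 0.05 in the ileum were Hoxc5, with -0.76 (SE 0.31, adjusted p = 0.23), and Hoxc8, with 0.47 (SE 0.21, adjusted p = 0.293). Hoxc5 libraries of the mutant ileum held one value, that of NFVCT27, inside the control range.

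The size of the genotype difference was bounded for tested genes only, and more tightly for some than for others. Hoxb9 had a log2 fold change of 0.09 (SE 0.11) in the ileum, with a 95% interval of -0.14 to 0.33 on the log2 scale, mutant minus control. The interval was -0.02 to 0.80 for Hoxb7 around 0.39, -0.67 to 0.24 for Hoxb6 around -0.22 and -0.47 to 0.43 for Hoxd8 around -0.02. In the duodenum it was 0.46 (SE 0.31) for Hoxa5, interval -0.21 to 1.13, 0.17 (SE 0.38) for Hoxb2, interval -0.66 to 1.0, and -0.10 (SE 0.29) for Hoxb3, interval -0.74 to 0.54. Intervals reached further from 0 for Hoxc4 (-0.11 to 1.29) and Hoxc5 (-1.42 to -0.10) in the ileum. The same held for Hoxb5 (0.22 to 1.61) and Hoxa4 (-0.60 to 1.46) in the duodenum. Hox genes below the filter have no fitted interval. Smooth muscle genes also moved here: 5 of 11 were higher in mutant than in control ileum, with a list difference of 0.59 (exact permutation p = 0.0286, adjusted p = 0.162). Leukocyte genes had a list difference of -0.68 in the ileum (exact permutation p = 0.0286, adjusted p = 0.162) and of -0.48 in the duodenum (exact permutation p = 0.0286, adjusted p = 0.324). With the smooth muscle score as a covariate 0 Hox genes were called between genotypes. The part of leukocytes was not tested.

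**Figure D4:**
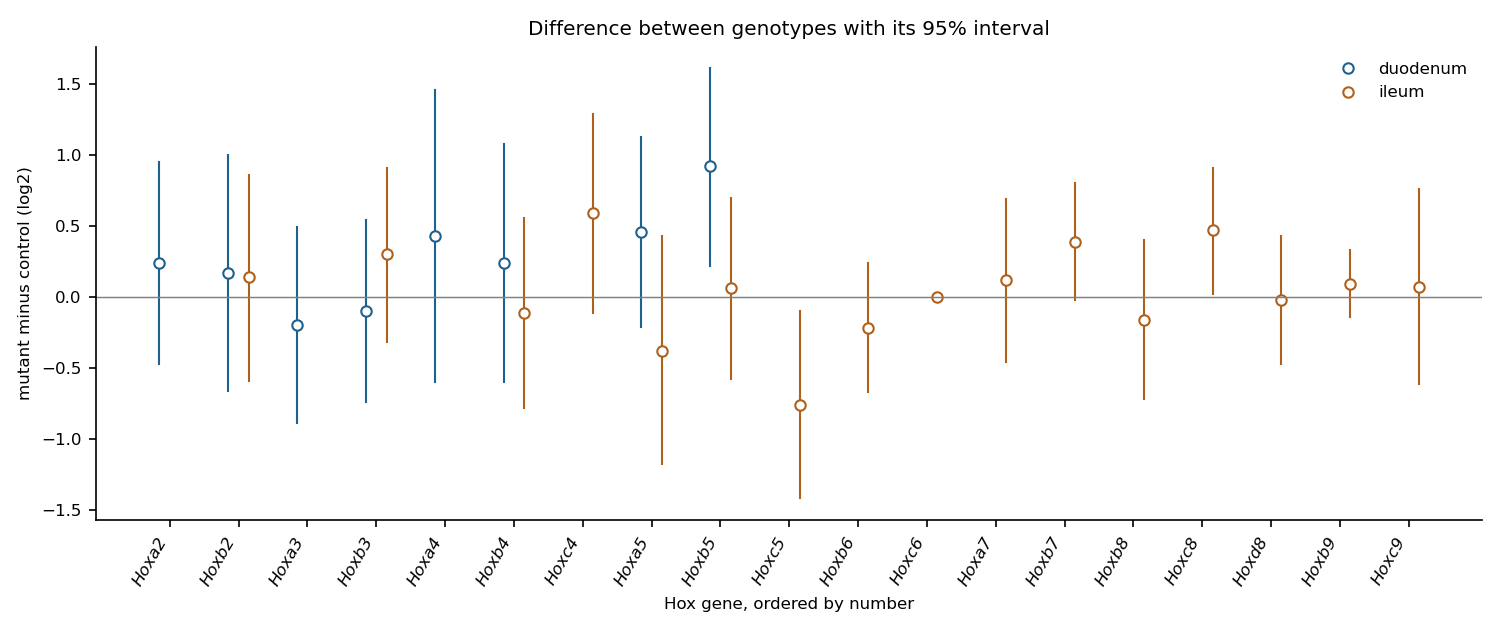
Log2 difference of mutant minus control for the Hox genes tested in the duodenum (blue) and ileum (brown), ordered by number. Circles are fitted values and lines 95% intervals; Hoxc6 has no interval, its difference being 0.00. No gene was called. The intervals, which are not adjusted for the number of genes tested, leave out 0 for Hoxb5 in the duodenum and for Hoxc5 and Hoxc8 in the ileum.

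The genotype effect was then compared between tissues over all 16 libraries. Of 19 Hox genes tested 0 were called, against 0.0441% of 15882 genes (0.0378% higher and 0.0063% lower). Of the 19, 2 had an unadjusted p under 0.05, against 700 of the 15882. One was Hoxc5, whose interaction was -2.08 (SE 0.52, adjusted p = 0.316), unadjusted p = 0.000854; the other was Hoxc6, with an unadjusted p of 0.0355. The test also bears on genes called in the ileum of 1 genotype only. Hoxb5 gave -0.85 (SE 0.44, adjusted p = 1), Hoxc4 -0.37 (SE 0.69, adjusted p = 1), Hoxa5 -0.83 (SE 0.50, adjusted p = 1) and Hoxa2 -0.97 (SE 0.64, adjusted p = 1). None of these tissue differences was thus shown to differ between genotypes.

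Among RNAs that lie within the clusters without coding for Hox proteins, 9 of the 15 listed had counts and 0 passed the filter. Mir196a-1, the hairpin gene of a miRNA between Hoxb9 and Hoxb13, had 0 duodenal counts, 43 in control ileum and 14 in mutant ileum, at least 10.2-fold and 6.52-fold higher there. Reads on a hairpin gene do not measure the mature miRNA. The mature miR-196a-5p (RefSeq, GRCm38.p6, chr11:96265187-96265208) is shown with its seed, bases 2 to 8, in capitals, because a Hox gene carries a near-complete match to it.
miR-196a-5p: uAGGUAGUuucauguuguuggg
Hoxb8 site: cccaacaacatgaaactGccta

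The Hoxb8 site, in the 3′ UTR of its GENCODE vM21 transcript, matches the reverse complement of the miRNA at 21 of 22 bases. The capital marks the 1 mismatch, A5G, with positions counted opposite the miRNA from its 5′ end. It lies opposite the seed, where the site's G faces a U of the miRNA. Bases were compared by letter, so a G:U pair, which can form in RNA, counts as a mismatch. Among 87 transcripts of the 39 Hox genes no other gene came closer than 7 mismatches. Mismatches were counted over all 22 bases, so this does not show whether other Hox genes match the seed alone. Hoxb8 and Mir196a-1 were both seen in the ileum and scarcely in the duodenum. A further noncoding gene, Gm53, lying between Hoxb9 and Hoxb13 and chosen after its values were seen, had 0 duodenal counts. It stood at 13.7, 17.5, 13.3 and 13.6 CPM in control ileum and 11.5, 10.8, 10.8 and 14.0 in mutant ileum. It was at least 247-fold and 292-fold higher in the ileum of controls and mutants. Hoxaas2, a noncoding gene of the Hoxa cluster, went the other way in controls, whose tissues did not overlap, with 21 duodenal and 3 ileal counts in controls and 29 and 8 in mutants; it overlaps Hoxa3 on the other strand.

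Partners and regulators of Hox genes are given by list, to be read against the 35.9% of all genes called between tissues in controls and the 32.3% called in mutants. Of 11 cofactor genes of the TALE class, 10 were tested in controls, 3 rose and 2 fell in the ileum. Meis1, a Hox partner, rose by 0.96 (SE 0.22, adjusted p = 0.00489), while Meis2, of the same family, fell by 1.42 (SE 0.13, adjusted p = 3.96e-06), from 41.0 ± 3.82 to 15.2 ± 2.36 CPM. In mutants 3 rose and 2 fell of 11; Meis2 fell by 1.51 (SE 0.38, adjusted p = 0.0173), while Meis1 was not called (0.20, SE 0.14, adjusted p = 0.312). Pbx4 rose in mutant against control ileum, from 0.569 ± 0.0932 to 2.25 ± 0.727 CPM (1.88, SE 0.33, adjusted p = 0.00645), the 1 TALE gene called between genotypes. Of the ParaHox genes, relatives of the Hox genes that act in the gut, Pdx1, a duodenal and pancreatic factor, fell by 5.13 (SE 0.29, adjusted p = 9.54e-07), and Cdx1 and Cdx2, the caudal factors of the intestinal epithelium, rose by 0.83 (SE 0.11, adjusted p = 8.34e-05) and 0.39 (SE 0.11, adjusted p = 0.0119) in controls. In mutants Pdx1 fell by 5.50 (SE 0.24, adjusted p = 7.73e-08) and Cdx1 rose by 0.49 (SE 0.12, adjusted p = 0.00835), while Cdx2 was not called (0.41, SE 0.16, adjusted p = 0.0735). Evx1 and Evx2, homeobox genes beside the clusters, had 2 and 0 counts in all.

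Of 24 Polycomb and trithorax genes, which keep Hox clusters silent or active, 4 rose and 5 fell in control ileum, and 2 rose and 5 fell in mutant ileum, shares near those of all genes. Bmi1, of a Polycomb complex, rose by 0.62 (SE 0.14, adjusted p = 0.00373) in controls and by 0.54 (SE 0.12, adjusted p = 0.00451) in mutants. Kdm6b, a demethylase of the Polycomb mark, fell by 0.83 in controls (SE 0.15, adjusted p = 0.0008) and was not called in mutants (-0.36, SE 0.39, adjusted p = 0.516). None was called between genotypes. Retinoic acid is a known inducer of low-numbered Hox genes. Of 16 genes of its pathway 11 were tested, 0 rose and 7 fell in the ileum of controls, and the same counts held in mutants. Aldh1a3, which makes retinoic acid, fell by 1.32 (SE 0.15, adjusted p = 1.64e-05) and Rdh10, which makes its precursor, by 0.88 (SE 0.13, adjusted p = 0.000252) in controls. Aldh1a2, another such synthase, fell by 0.82 (SE 0.17, adjusted p = 0.00191). Cyp26b1, whose product breaks retinoic acid down, was lower in control ileum too (-0.97, SE 0.36, adjusted p = 0.0487), as was Dhrs3 (-0.47, SE 0.12, adjusted p = 0.00947). The list's mean differed by -0.23 in controls and -0.28 in mutants (adjusted p = 0.121 and 0.054 by exact permutation). The part of retinoic acid in the Hox results was not tested. Aldh1a1 was the 1 gene of the list called between genotypes, lower by 1.05 in mutant ileum (log2 fold change -1.05, SE 0.22, adjusted p = 0.0385).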

How the data were processed

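RNA of the duodenum and ileum of 8 mice was sequenced in 16 libraries, stranded and depleted of ribosomal RNA per the labels' protocols. The authors deposited raw read counts per Ensembl gene, 1 column per library, not normalised. Per the submitters' processing notes, the tools were STAR 2.5.3a, Bowtie2 2.2.8, HTSeq 0.6.1p1, cutadapt 1.10 and bcl2fastq 2.20.0.422, with build mm39. Neither annotation release nor strand setting is given in the sources used here. Symbols came from a gene name table (52083 of 55359 identifiers matched, with 98.3% of counts). Exon lengths, transcripts and promoters came from GENCODE vM21 and RefSeq of GRCm38, and no coordinates were converted.

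The main test was that of edgeR 4.0.16 under R 4.3.3 (TMM scaling, filterByExpr by group, robust quasi-likelihood F test, Benjamini-Hochberg over all genes tested, called under 0.05), each comparison on its own libraries and the interaction on all 16. Every adjusted p is from this test unless another is named. The scripts were tested on simulated data, in which scarce genes were not among those changed. Of 2-fold changes, 28% were recovered between genotypes in the ileum and 32% between tissues in controls, and of 4-fold changes 100% in each. A 2-fold change of a Hox gene could thus be missed. Where a group summed to 3 counts or fewer, a ratio or bound replaces the fitted change; SE is the log2 fold change over the square root of F. DESeq2 1.42.0, limma-voom 3.58.1, other scalings and filters, a smooth muscle covariate, omission of acinar genes and of each library were alternatives. Libraries of an animal share its name in the labels and deviated together (correlations 0.117 to 0.378 in the 8 animals, although NF29, at 0.117 against 0.12, and NF32, at 0.227 against 0.254, correlated more with another animal), so the animal as a paired block was fitted too. P-values measure the spread between these animals. No library pair was a duplicate. PCR copies are not independent molecules, so intervals and floors cover counting error only.

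The members, the other gene lists and the naming rule were chosen with earlier results of these data known. The rule takes every Hox gene, per-library values for members called in a comparison (at most 6 a cluster by smallest p), and up to 4 genes of smallest p from each other list. Cyp26b1 is named besides. Values of 1 member and of some listed genes are not reported here, though they are in the counts.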

Additional observations from a re-analysis of the deposited data

Results flagged for a closer look

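Among 55 groups of 4 libraries tested for a value far from the others, 7 were singled out, where chance gives about 1 in 20. Of these, 4 rest on 1 to 3 counts against libraries at or near 0 in the duodenum: Hoxb8 at 0.0583 CPM in mutant NFVCT38, Hoxb9 at 0.0928 CPM in control NF32 and at 0.175 CPM in mutant NFVCT38, and Hoxc6 at 0.163 CPM in control NF17. In control ileum, NF29 was lowest for Hoxc4, at 0.715 CPM against 0.908 to 0.935 in the other 3, and for Hoxc9, at 0.983 CPM against 1.23 to 1.27. In mutant ileum, NFVCT27 was highest for Hoxc5, at 1.64 CPM against 0.880 to 0.964 in the others.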

How the results depend on the processing

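Of 610 recomputed values of single Hox genes, 577 kept their direction and side of the threshold, 19 lost the call, 9 gained it and 5 changed sign. With the replicate block (animal), the paired fit, 13 Hox genes were higher and 0 lower in control ileum, 10 higher and 2 lower in mutant ileum, and 0 called in the interaction; all genes called in the interaction went from 7 to 16. Hox genes called lower in control ileum were 0, and 1 with no filter or with all 16 libraries in one fit; leaving out 1 library gave 0 to 1. In mutant ileum the smooth muscle covariate left 5 higher and 0 lower, and leaving out 1 library gave 1 to 2 lower. That covariate also left 1232 of 5372 and 765 of 4833 genes called between tissues, 37 of 58 and 25 of 490 between genotypes. Genotype calls over all genes in the duodenum were 169 without the filter, 310 with DESeq2 and 151 with all 16 libraries, in the ileum 1096 without the filter and 875 with DESeq2, and in the interaction 15 and 38. Leaving out 1 library gave 27 to 61, 272 to 472 and 3 to 13. Changes of sign fell on values not called in the main test. Hoxb2 in controls ran from -0.39 to 0.06 with 1 library left out (above 0 without the ileum of NF29 or the duodenum of NF152). With the covariate, Hoxb4 in controls went from 0.86 to -0.13. In mutants Hoxc4 went from 1.01 to -0.20 and Hoxc5 from 0.41 to -0.60. The cause was not tested. No Hox gene was called between genotypes under any alternative run. Depth limits what a 0 shows: over the 4 libraries of a group it allows 0.0389 CPM in mutant duodenum, 0.0534 in control duodenum, 0.0459 in control ileum and 0.0596 in mutant ileum.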
